A study of Mus musculus with 34 samples.

Results

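RNA of the mouse hippocampus 30 min after contextual fear conditioning was compared with RNA of control hippocampus over all 11531 genes of the deposited table. Of the 34 samples of the series, 6 entered this comparison: 3 RNA libraries labelled 30 min and 3 labelled control. They were set against each other by replicate number. Contextual fear conditioning is a form of learning in which an animal comes to link a place with a foot shock. Mice of strain C57BL/6N, caged singly, had daily handling of 3 min over 4 days. The mice of the 30 min group then spent 148 s in the conditioning chamber, received 1 foot shock lasting 2 s and went back to the home cage 30 s later, and their hippocampi were frozen at the stated time. The control hippocampi are labelled as having had no stimulus. The labels give no exposure to the chamber without a shock, so the shock, the new place and the handling of the session cannot be told apart. Age and sex are not used here, and the labels do not say whether the 3 replicates of a group were separate mice or pools. The p-values therefore reflect how far these libraries differ, and that difference may be technical.

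Neurons that fire strongly switch on immediate-early genes within minutes, without need for new protein. Calcium entry and cyclic AMP activate kinases that phosphorylate transcription factors such as CREB and SRF, which already sit on the promoters of these genes. Some immediate-early genes encode transcription factors, among them the AP-1 family (Fos and Jun proteins), the Egr family and the Nr4a nuclear receptors. Others, such as Arc, encode proteins that act at synapses. In the hippocampus, Arc and Fos mRNA are widely used as markers of cells that were recently active.

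3 genes of this kind were higher 30 min after conditioning by the test across all genes: Arc, which encodes a synaptic protein that takes part in AMPA receptor removal, and Junb and Fos, which encode subunits of the AP-1 transcription factor. The mean RNA signal was 36.0% higher at 30 min for Arc, 36.1% higher for Junb and 78.6% higher for Fos. 1 gene was lower, Cdkn1c, which encodes an inhibitor of cyclin-dependent kinases, with a change of -47.9% in the mean. These 4 genes were 0.0347% of those tested, 0.026% higher and 0.00867% lower. Each of the other immediate-early genes in the table missed the threshold. On the immediate-early transcription factor list, 16 of 26 genes were higher in all 3 replicate pairs, as were 18 of 30 on the effector list. These counts include Arc, Junb and Fos, and the same held for 20.4% of all genes.

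The signal is the deposited value, a number of reads divided by 1 number per library, so it can be set against other libraries for the same gene, but not against other genes. Log2 changes were taken on log2(signal + 0.1), which understates changes of genes with low signal, and were fitted with the limma linear model over the 15 RNA libraries of hippocampus with the replicate number as a block. P-values were 2-sided and adjusted over the 11531 genes by the Benjamini-Hochberg method, with a threshold of 0.05. Genes whose mean over the 15 libraries was under 1 are called low-signal genes (3470 genes), and the other 8061 had a mean of at least 1. The 30 min libraries held 25300011, 20850550 and 18007091 reads on listed genes, against 22149515, 22779768 and 19138650 in the control libraries. The median gene held 565 to 766 reads at 30 min and 608 to 742 in control. Gm20594 took the largest share in each of the 6 libraries, 14.1 to 14.7% at 30 min and 12 to 14.1% in control. Markers of hippocampal neurons were present in each library: the pyramidal neuron transcription factor gene Neurod6 had signals of 8.82, 8.95 and 9.53 at 30 min, against 8.61, 8.32 and 8.10 in control, and Prox1, a transcription factor gene of dentate granule cells, had 3.40, 3.61 and 3.62 at 30 min, against 3.07, 3.39 and 3.32 in control.

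The promoters of 4 of the immediate-early genes described below are shown because cyclic AMP response elements are a known route of their activation. These 4 were picked and do not stand for the list, and Arc had no promoter entry in the set used. Each line gives the 250 bases before the transcription start, 5′ to 3′ on the gene's own strand, from RefSeq (build GRCm38.p6). Capitals mark each half-site of the cyclic AMP response element, TGACG or its reverse complement CGTCA. The windows are chr12:85473640-85473889 on the plus strand for Fos, chr8:84978749-84978998 on the minus strand for Junb, chr1:134079156-134079405 on the minus strand for Btg2 and chr15:101266596-101266845 on the plus strand for Nr4a1.
Fos: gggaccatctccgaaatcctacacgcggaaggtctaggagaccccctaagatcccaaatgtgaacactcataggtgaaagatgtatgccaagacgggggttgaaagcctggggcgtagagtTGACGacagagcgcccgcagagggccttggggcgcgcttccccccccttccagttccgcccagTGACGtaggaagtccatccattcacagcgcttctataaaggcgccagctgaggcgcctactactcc
Junb: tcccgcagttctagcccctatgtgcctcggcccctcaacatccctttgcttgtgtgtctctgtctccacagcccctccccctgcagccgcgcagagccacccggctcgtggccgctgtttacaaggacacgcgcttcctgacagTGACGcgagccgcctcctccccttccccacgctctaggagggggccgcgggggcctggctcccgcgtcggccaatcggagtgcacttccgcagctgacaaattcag
Btg2: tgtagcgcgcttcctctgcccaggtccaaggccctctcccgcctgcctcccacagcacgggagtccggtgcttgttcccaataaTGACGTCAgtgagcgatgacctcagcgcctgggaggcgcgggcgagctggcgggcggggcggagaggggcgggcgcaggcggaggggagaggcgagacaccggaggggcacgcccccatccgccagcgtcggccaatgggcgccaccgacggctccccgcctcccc
Nr4a1: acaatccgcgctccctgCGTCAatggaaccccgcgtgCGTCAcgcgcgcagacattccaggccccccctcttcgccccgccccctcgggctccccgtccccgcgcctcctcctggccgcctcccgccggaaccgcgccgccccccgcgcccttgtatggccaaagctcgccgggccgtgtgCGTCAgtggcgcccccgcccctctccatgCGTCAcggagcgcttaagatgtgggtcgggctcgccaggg
The first bases of the half-sites lay 129 and 66 bases before the start in Fos, 106 in Junb, 166 and 163 in Btg2, and 233, 213, 69 and 40 in Nr4a1. The 2 half-sites of Btg2 overlap and together form the full palindrome TGACGTCA, which none of the other 3 windows holds. The CArG box, the element bound by SRF, was searched as CCWWWWWWGG, with W for A or T. None of the 4 windows holds an exact match, and looser matches or bases further upstream were not searched.

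Promoter windows were found in RefSeq for 8725 genes of the table, 11298 windows in all, since some genes have several starts. Of these, 26.4% held a half-site on either strand, 2.61% held the full element (which contains the half-site) and 1.11% held a CArG box. Of 25 windows of 21 genes on the immediate-early transcription factor list, 18 held a half-site (72%). The full element was in 1 (4%) and a CArG box in 1 (4%). Of 29 windows of 24 immediate-early effector genes, 17 held a half-site (58.6%), 5 the full element (17.2%) and 2 a CArG box (6.9%). These are matches of letters in a fixed window and describe the sequences only.

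Arc had signals of 4.72, 5.2 and 4.70 in the 30 min libraries, against 3.70, 3.19 and 3.86 in the control libraries. All 3 values at 30 min lay above all 3 of control, and control replicate 2 was the lowest. The means were 4.87 ± 0.280 at 30 min and 3.58 ± 0.351 in control (SD, n = 3 each), and the fitted log2 change was 0.44 (SE 0.068; adjusted p = 0.00364 by limma). The value rested on 1215 to 1766 reads per library.

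Junb had signals of 2.25, 2.48 and 2.42 at 30 min, against 1.70, 1.89 and 1.67 in control, and the groups did not overlap. Its log2 change was 0.42 (SE 0.071, limma adjusted p = 0.00714). Fos, a low-signal gene, had signals of 0.631, 0.660 and 0.554 at 30 min, against 0.356, 0.324 and 0.352 in control. The lowest 30 min library thus lay above the highest control library. The log2 change of Fos was 0.68 (SE 0.12, limma adjusted p = 0.00819), on 111 to 236 reads per library.

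These calls depended on the replicate block and on single libraries. Without the block, 0 genes passed (smallest limma adjusted p = 1), and 206 genes had an unadjusted p under 0.05, against 1024 with the block. The limma voom fit to the whole reads gave 2 higher genes (Arc and Fos) and 3 lower (Cdkn1c, 1200014J11Rik and Epn3), against 3 higher and 1 lower. Without control replicate 2, 0 genes passed (smallest limma adjusted p = 0.0881, 816 at an unadjusted p under 0.05). Without 30 min replicate 1, 0 higher genes and Cdkn1c passed, without 30 min replicate 2, Junb alone passed, and without 30 min replicate 3, Arc, Fos and Cdkn1c passed. Without control replicate 1, the 3 higher genes passed and Cdkn1c did not, and without control replicate 3, the 3 higher genes and 7 lower genes passed. In further fits all RNA libraries of 1 number were left out, those of the other times included. Without number 1, Arc alone passed, and without number 2, Junb alone passed. Without number 3, Arc, Fos and 20 lower genes passed. When single libraries or all RNA libraries of 1 number were left out, the log2 change of Arc ranged over 0.31 to 0.52. That of Junb ranged over 0.38 to 0.47 and that of Fos over 0.60 to 0.77.

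**Figure D1:**
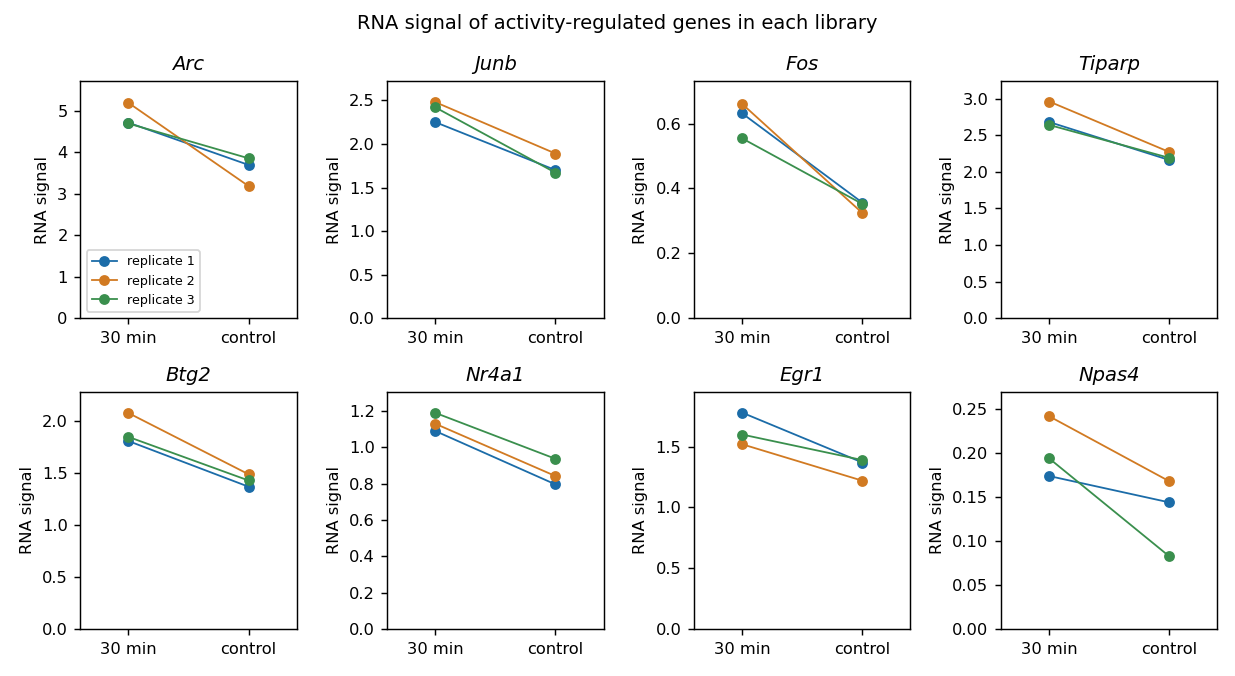
RNA signal (vertical axes, from 0) of 8 activity-regulated genes in each library, 30 min on the left and control on the right; points are libraries and lines join libraries with the same replicate number. The 8 genes shown have all 3 libraries at 30 min above all 3 control libraries, as do 4.27% of all genes. Members of the same families with overlapping groups, such as Egr3 and Fosb, are not shown. Arc, Junb and Fos passed the test across all genes and the other 5 did not.

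The immediate-early transcription factor list also holds some genes of other function, among them Tiparp and Btg2. Of its 36 genes, 26 were in the table. Like the other lists, it was chosen with earlier results of these data known, so its shares are no independent check. 2 of them passed, Fos and Junb, both higher, and none lower. The log2 change was above 0 in 23 of 26 (64.9% of all genes), with a median of 0.10 against 0.03 over all genes. With voom this median was 0.06, against -0.03 over all genes. In 11 of 26, the 30 min libraries did not overlap the control libraries and were higher, against 4.27% of all genes. The summed signal of the list was 39.3, 39.7 and 38.5 at 30 min and 34.7, 35.2 and 35.5 in control.

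The genes of this list that came nearest to the threshold were Tiparp, Btg2 and Nr4a1. Tiparp encodes a member of the poly-ADP-ribose polymerase family in the aryl hydrocarbon receptor pathway. It had signals of 2.68, 2.96 and 2.64 at 30 min, against 2.16, 2.27 and 2.19 in control (log2 change 0.31, SE 0.065, limma adjusted p = 0.112). Btg2, an antiproliferative gene whose product promotes mRNA deadenylation, had 1.81, 2.08 and 1.85 at 30 min, against 1.37, 1.49 and 1.43 in control (limma adjusted p = 0.306). Nr4a1, which encodes an orphan nuclear receptor, had 1.09, 1.13 and 1.19 at 30 min, against 0.796, 0.842 and 0.937 in control (limma adjusted p = 0.333). In these 3 genes the groups did not overlap, and each replicate pair was higher at 30 min.

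The other genes of the families were uneven. Nr4a2 had signals of 2.17, 1.96 and 2.08 at 30 min, against 1.63, 1.47 and 1.87 in control (limma adjusted p = 0.423), whereas Nr4a3 had 0.709, 0.607 and 0.654 at 30 min, against 0.563, 0.624 and 0.651 in control. Egr1, which encodes a zinc finger transcription factor, had 1.78, 1.52 and 1.60 at 30 min, against 1.37, 1.22 and 1.39 in control (limma adjusted p = 0.44). Egr3 of the same family had 0.618, 0.629 and 0.540 at 30 min, against 0.5, 0.617 and 0.619 in control, and its groups overlapped.

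Within the AP-1 family, Fosb had 0.160, 0.202 and 0.173 at 30 min, against 0.0988, 0.127 and 0.165 in control, with overlap of the groups and each replicate pair higher (limma adjusted p = 0.561). Jun had 3.28, 3.40 and 3.54 at 30 min, against 3.24, 3.31 and 3.42 in control, a log2 change of 0.03 that turned to -0.03 in the voom fit. Fosl2, another Fos family gene, had a log2 change of 0.03 (limma adjusted p = 0.92). The AP-1 genes therefore spanned log2 changes of 0.03 to 0.68, with Fos and Junb past the test.

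Among low-signal members, Npas4 and Ier2 also had groups that did not overlap, on few reads. Npas4, a neuron-specific transcription factor gene induced by calcium entry, had signals of 0.174, 0.242 and 0.194 at 30 min, against 0.144, 0.168 and 0.0825 in control, on 26 to 79 reads per library (log2 change 0.40, SE 0.19, limma adjusted p = 0.535). Ier2, an immediate-early nuclear protein gene, had 0.209, 0.178 and 0.218 at 30 min, against 0.168, 0.137 and 0.121 in control, on 38 to 78 reads (limma adjusted p = 0.481). Srf, which encodes serum response factor itself, and the clock repressor gene Bhlhe40 also did not overlap, at log2 changes of 0.12 and 0.09. The 3 members below 0 were Ier3 (-0.19), Per1 (-0.06) and Ier5 (-0.03), each with overlapping groups and an unadjusted p above 0.05.

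Immediate-early effector genes encode synaptic, signalling and enzymatic proteins rather than transcription factors, and 30 of 35 on the list were in the table. Arc passed, and the other 29 did not. The log2 change was above 0 in 28 of 30, against 64.9% of all genes, with a median of 0.10 that was 0.04 with voom. In 6 of 30 the groups did not overlap and were higher at 30 min, against 4.27% of all genes. The summed signal was 107.4, 99.9 and 103.1 at 30 min and 98.5, 96.1 and 95.8 in control.

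Of the effectors that did not pass, Errfi1, which encodes an inhibitor of the EGF receptor, had the smallest p. Its signals were 2.82, 3.02 and 2.85 at 30 min, against 2.47, 2.30 and 2.50 in control (log2 change 0.25, SE 0.065, limma adjusted p = 0.404). Arl4d, which encodes a small GTPase of the ARF family, had 0.476, 0.644 and 0.436 at 30 min, against 0.371, 0.389 and 0.356 in control (limma adjusted p = 0.425). Cyr61, which encodes a secreted matrix protein, had 0.307, 0.319 and 0.304 at 30 min, against 0.195, 0.194 and 0.238 in control (limma adjusted p = 0.44). Both are low-signal genes in which the groups did not overlap.

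Ptgs2, which encodes the inducible prostaglandin synthase COX-2, varied between replicate numbers in both groups. It had signals of 2.75, 2.18 and 2.47 at 30 min, against 2.51, 1.69 and 2.26 in control, higher in each pair with overlapping groups (log2 change 0.20, limma adjusted p = 0.434). Homer1, which encodes a postsynaptic scaffold protein, had 17.8, 16.5 and 16 at 30 min, against 16.7, 15.2 and 15.3 in control (log2 change 0.09, limma adjusted p = 0.561). The table lists Homer1 once, so the short activity-induced Homer1a form could not be separated from the long forms.

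None of the feedback genes in the table passed. Among 18 of 20 on that list, which encode phosphatases and inhibitors that shut off kinase signalling, 0 passed by limma, and 2 had an unadjusted p under 0.05, both higher (7.22% of all genes were higher at this level). Voom called none of the 18 either. Dusp1, which encodes a MAP kinase phosphatase, had signals of 0.824, 0.831 and 0.872 at 30 min, against 0.692, 0.725 and 0.724 in control, without overlap (limma adjusted p = 0.575). Nfkbia, which encodes the NF-κB inhibitor, had 1.04, 1.12 and 1.05 at 30 min, against 0.886, 0.972 and 0.879 in control (limma adjusted p = 0.5). Dusp6, an ERK phosphatase gene, had 3.73, 3.74 and 3.72 at 30 min, against 3.45, 3.56 and 3.58 in control (limma adjusted p = 0.699). The list had a median log2 change of 0.07, which was 0.04 with centred libraries and 0.01 with voom, and 16 of 18 members were above 0, against 64.9% of all genes.

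Late-response genes depend on the first wave of transcription factors and encode growth factors and secreted synaptic proteins. Of 22 in the table, 17 were above 0 (against 64.9% of all genes), and the median log2 change was 0.09, or 0.04 with voom. By limma 0 passed and by voom 0, and 5 were higher at an unadjusted p under 0.05, against 7.22% of all genes. Bdnf, which encodes brain-derived neurotrophic factor, had signals of 3.99, 4.20 and 3.87 at 30 min, against 3.80, 3.43 and 3.78 in control, without overlap (log2 change 0.13, limma adjusted p = 0.534). Scg2, which encodes the neuropeptide precursor secretogranin II, had 26.9, 20.4 and 21.0 at 30 min, against 25.0, 16.9 and 18.7 in control, higher in each pair with overlap of the groups (log2 change 0.18, limma adjusted p = 0.423). The DNA damage-response gene Gadd45a had 0.273, 0.291 and 0.235 at 30 min, against 0.216, 0.148 and 0.206 in control (limma adjusted p = 0.453).

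A foot shock also raises circulating corticosterone, which acts on the hippocampus through glucocorticoid receptors. Of 29 listed glucocorticoid-responsive genes, 26 had a log2 change above 0, against 64.9% of all genes, and the median was 0.08, or 0.04 with voom. By limma 0 passed and by voom 0, and 7 were higher at an unadjusted p under 0.05, against 7.22% of all genes. This list shares members with the immediate-early and feedback lists, among them Tiparp, Errfi1 and Nfkbia. Sgk1, which encodes a kinase that regulates ion channels, had signals of 5.68, 6.91 and 5.99 at 30 min, against 4.35, 6.11 and 4.50 in control, higher in each pair but overlapping (log2 change 0.32, SE 0.092, limma adjusted p = 0.425). Arrdc2, an arrestin-domain gene, had 0.369, 0.436 and 0.325 at 30 min, against 0.278, 0.288 and 0.238 in control (limma adjusted p = 0.425). Tsc22d3, which encodes the anti-inflammatory protein GILZ, had 6.52, 7.60 and 6.73 at 30 min, against 5.97, 6.05 and 6.25 in control (limma adjusted p = 0.448). In both of these genes the groups did not overlap. Fkbp5, which encodes a chaperone of the glucocorticoid receptor, had 2.69, 2.10 and 2.77 at 30 min, against 2.46, 2.13 and 2.62 in control, with overlap.

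**Figure D2:**
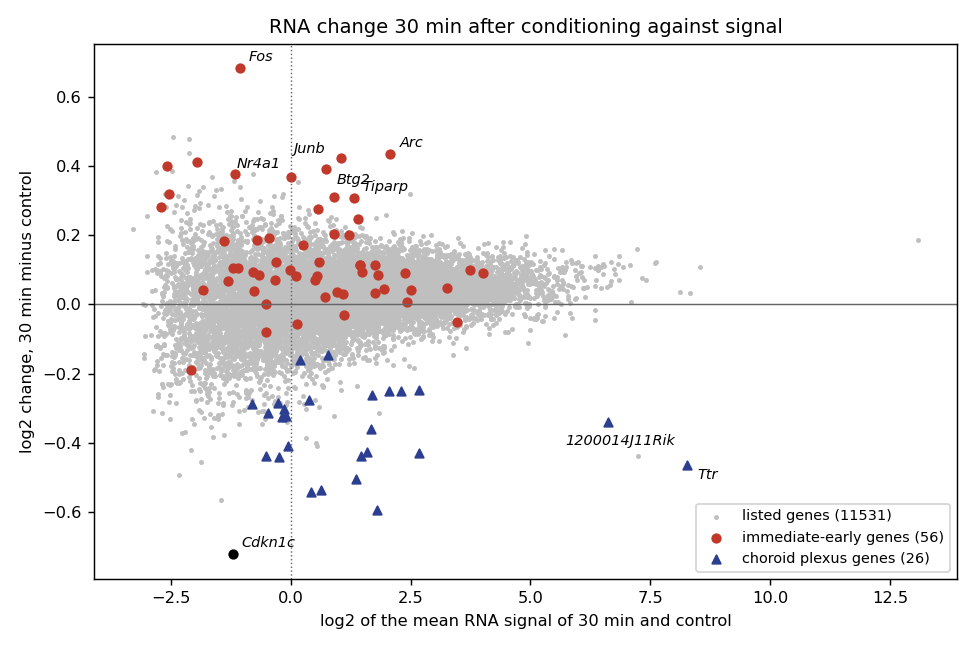
Log2 change at 30 min minus control (vertical axis) of each of the 11531 genes against the log2 mean signal of both groups (horizontal axis); red points are immediate-early genes, blue triangles choroid plexus genes, the black point is Cdkn1c, and the dotted line marks a mean signal of 1. Most immediate-early genes lie above 0, Fos at 0.68 highest, and all 26 choroid plexus genes lie below 0.

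The 1st and 99th percentiles of the log2 change over the table were -0.25 and 0.23, and the fold of the group means reached 1.5 in 6 genes (0.052%), all of low signal, and its inverse reached 1.5 in 19 (0.165%), 11 of them of low signal. Over all genes, 833 were higher (7.22%) and 191 lower (1.66%) at an unadjusted p under 0.05. All 3 replicate pairs were higher in 20.4% of genes and lower in 7.34%. The excess of higher genes lay among genes with a mean signal of at least 1, of which 71.5% were above 0, against 49.4% of low-signal genes. The median of all genes was 0.03, and centring each library on its median gene left the 4 calls as they were. The direction of small changes therefore depended on scaling: in the voom fit the median of all genes was -0.03.

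Outside the lists, the higher genes with the smallest p that did not pass were Arap2 and Hectd2. Arap2, which encodes a GTPase-activating protein for small GTPases of the ARF family, had signals of 12.9, 11.8 and 11.2 at 30 min, against 11.6, 9.77 and 10.0 in control (limma adjusted p = 0.306). Hectd2, which encodes a ubiquitin ligase, had 3.61, 3.98 and 3.64 at 30 min, against 2.95, 3.11 and 3.33 in control (limma adjusted p = 0.333), and its groups did not overlap. Both were higher in each replicate pair.

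Low-signal genes are given apart because their values rest on few reads. Of 3470, 2 passed, Fos and Cdkn1c (0.0576%). The higher low-signal genes next in p, none past the threshold, were Nr4a1 (above), Gpr3, Egfl6 and Egln3. Gpr3, which encodes a receptor that raises cyclic AMP without a ligand, had signals of 0.265, 0.270 and 0.322 at 30 min, against 0.216, 0.145 and 0.171 in control, on 54 to 99 reads (log2 change 0.48, SE 0.13, limma adjusted p = 0.423). Egln3, which encodes an oxygen-sensing prolyl hydroxylase, had 0.203, 0.212 and 0.277 at 30 min, against 0.159, 0.124 and 0.124 in control, on 39 to 80 reads (limma adjusted p = 0.425). Egfl6, which encodes a secreted protein with EGF repeats, had 0.340, 0.282 and 0.215 at 30 min, against 0.237, 0.122 and 0.184 in control, with overlap. The lower ones that did not pass were Epn3 (below), Mvb12a, BC017158 and Apba3. Mvb12a, an ESCRT sorting complex gene, had 0.869, 0.862 and 0.744 at 30 min, against 0.997, 1.14 and 1.07 in control (limma adjusted p = 0.404). BC017158 had 0.540, 0.684 and 0.481 at 30 min, against 0.683, 0.790 and 0.762 in control, with overlap. Apba3, an adaptor gene that binds the amyloid precursor protein, had 0.797, 0.819 and 0.730 at 30 min, against 0.868, 1.06 and 1.12 in control (limma adjusted p = 0.423).

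Cdkn1c, the lower gene that passed, had signals of 0.447, 0.282 and 0.163 at 30 min, against 0.799, 0.637 and 0.273 in control. The groups overlapped, because replicate 3 was low in both, while each pair was lower at 30 min. The means were 0.297 ± 0.143 at 30 min and 0.570 ± 0.270 in control (SD, n = 3 each), and the fitted log2 change was -0.72 (SE 0.11; adjusted p = 0.00364 by limma), on 47 to 267 reads per library. It did not pass without 30 min replicate 2, control replicate 1 or control replicate 2. Nor did it pass without all RNA libraries of number 1 or all of number 2. The log2 change ranged over -0.85 to -0.61 when single libraries or all RNA libraries of 1 number were left out.

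Genes of the choroid plexus were lower together with Cdkn1c in pairs 1 and 2, but most were not in pair 3. The choroid plexus is the epithelium that secretes cerebrospinal fluid in the ventricles beside the hippocampus. All 26 listed members in the table were below 0, with a median log2 change of -0.33, and 15 were lower at an unadjusted p under 0.05 (1.66% of all genes). By limma 0 of 26 passed, and by voom 0 as well. The summed signal of the list was 558.0, 420.8 and 93.7 at 30 min and 845.1, 749.0 and 85.5 in control. The median of the list's log2 ratios was -0.53 in pair 1, -0.74 in pair 2 and 0.15 in pair 3, where 19 of 26 members were higher. Lower in all 3 pairs were 7 of the 26 members (7.34% of all genes), as was Cdkn1c. In bulk tissue, fewer cells of a type and less RNA per cell cannot be told apart. The part of choroid plexus tissue in the change of Cdkn1c was not tested.

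Ttr, which encodes the thyroxine carrier transthyretin, had signals of 352.7, 293.2 and 46.3 at 30 min, against 554.9, 548.8 and 41.3 in control (log2 change -0.46, SE 0.36, limma adjusted p = 0.726). Kl, which encodes the FGF co-receptor Klotho, had 7.94, 5.59 and 1.99 at 30 min, against 11.4, 9.61 and 1.99 in control (limma adjusted p = 0.425). Enpp2, which encodes the lysophospholipase autotaxin, had 138.5, 79.1 and 27.8 at 30 min, against 194.6, 121.0 and 26.2 in control (limma adjusted p = 0.496). In each of these, replicate 3 was far below the other replicates in both groups. With all RNA libraries of number 3 left out, 20 lower genes passed, among them Ttr, Kl and Enpp2.

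The other lower genes with the smallest p showed the same order of libraries in part. Epn3, which encodes the endocytic adaptor epsin 3, had 0.385, 0.258 and 0.142 at 30 min, against 0.566, 0.671 and 0.165 in control (limma adjusted p = 0.367, voom adjusted p = 0.0493). Col9a3, a collagen IX chain gene, had 1.72, 1.22 and 0.585 at 30 min, against 2.59, 1.85 and 0.625 in control (limma adjusted p = 0.423). 1200014J11Rik had 212.8, 109.2 and 50.3 at 30 min, against 326.2, 147.4 and 60.7 in control (limma adjusted p = 0.112, voom adjusted p = 0.0116). Replicate 3 was lowest in each of these, as in the choroid plexus list, and the part of that list in their change was not tested.

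Cldn5, which encodes the tight junction protein of brain endothelium, did not follow that order. It had signals of 1.28, 1.17 and 1.38 at 30 min, against 1.66, 1.56 and 1.48 in control, without overlap, which held for 1.4% of all genes in the lower direction (log2 change -0.28, SE 0.078, limma adjusted p = 0.423). Of 22 genes of endothelium and pericytes, 11 were above 0 and 11 below. The median was 0.01, which turned to -0.03 with centred libraries and -0.05 with voom. At an unadjusted limma p under 0.05, 3 of the 22 were lower (1.66% of all genes) and 1 was higher (7.22%). All 3 pairs were lower in 6 of the 22 (7.34% of all genes) and higher in 2 (20.4%). Among 9 genes of the ciliated ependyma that lines the ventricles, 7 were below 0, with a median of -0.10. Foxj1, the transcription factor gene of motile cilia, had 0.660, 0.672 and 0.457 at 30 min, against 0.835, 0.883 and 0.546 in control (limma adjusted p = 0.477), lower in each pair.

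**Figure D3:**
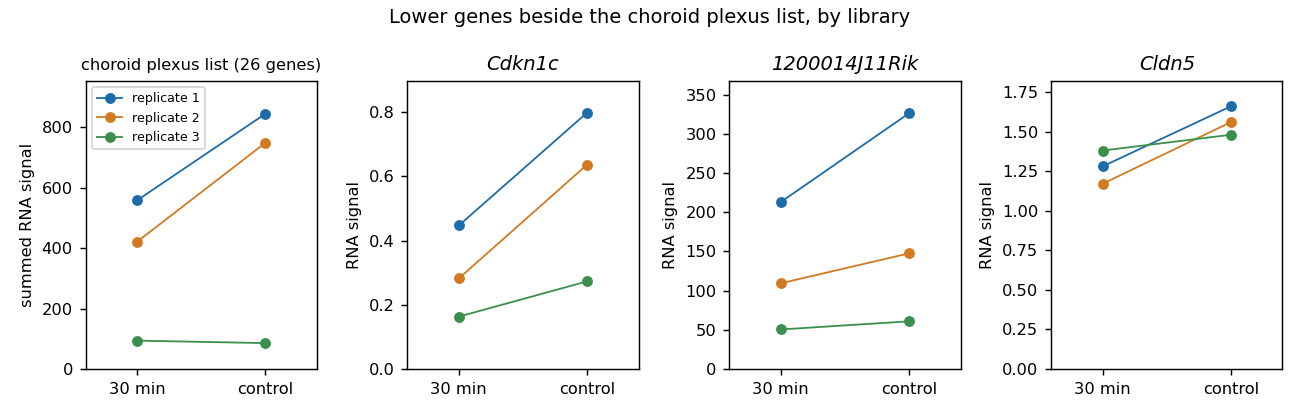
Summed RNA signal of the 26 choroid plexus genes and RNA signal of Cdkn1c, 1200014J11Rik and Cldn5 (vertical axes, from 0) in each library, 30 min on the left and control on the right; lines join libraries with the same replicate number. The summed list was lower at 30 min in pairs 1 and 2 and not in pair 3. Cdkn1c was lower in all 3 pairs, as were 7 of the 26 list members.

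No listed marker of another hippocampal cell type passed. Of 20 microglial genes, 18 were above 0, against 64.9% of all genes, with a median log2 change of 0.10, or 0.05 with voom. By limma 0 passed and by voom 0, and 5 were higher at an unadjusted p under 0.05, against 7.22% of all genes. The median log2 ratio of the list was 0.05 in pair 1, 0.24 in pair 2 and 0.0050 in pair 3. Tmem119, a microglial membrane protein gene, had 1.42, 1.69 and 1.51 at 30 min, against 1.24, 1.25 and 1.38 in control (limma adjusted p = 0.44). The summed microglial signal was 53.5, 45.0 and 45.8 at 30 min and 51.1, 38.1 and 45.5 in control. Of 15 genes of CA1 pyramidal neurons, 13 were above 0, with a median of 0.09, or 0.03 with voom. Spink8, a serine protease inhibitor gene of CA1 neurons, had 2.64, 2.62 and 2.76 at 30 min, against 2.41, 2.31 and 2.31 in control, without overlap (limma adjusted p = 0.44). Of 21 genes of GABA receptors and inhibitory synapses, 18 were above 0, with a median of 0.09, or 0.03 with voom. In pair 2 the median log2 ratio was 0.19 for the CA1 list and 0.16 for the inhibitory list, against at most 0.06 in the other pairs. Gabra2, a GABA-A receptor subunit gene, had 13, 12.4 and 12.9 at 30 min, against 12.7, 9.62 and 11.9 in control (limma adjusted p = 0.44). The value of control replicate 2 was the lowest of the 6.

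The fitted medians of housekeeping lists stood near that of all genes, but the pairs did not move alike. The 74 ribosomal protein genes, whose near-identical copies make single counts uncertain, had a median log2 change of 0.03, which turned to -0.0004 with centred libraries and -0.03 with voom. In pair 2, 72 of the 74 were higher at 30 min (median log2 ratio 0.17, against 0.04 for all genes), whereas 52 were lower in pair 1 and 54 in pair 3. The 74 genes of oxidative phosphorylation had a median of -0.0015, with 36 above 0. The 30 proteasome genes had a median of 0.03, which turned to -0.03 with voom, with 21 higher in pair 1, 8 in pair 2 and 26 in pair 3, and 14 reference genes had a median of 0.0007, which turned to -0.03 with centred libraries. Of 20 clock genes, 13 were above 0 (median 0.01, and -0.02 with centred libraries).

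**Figure D4:**
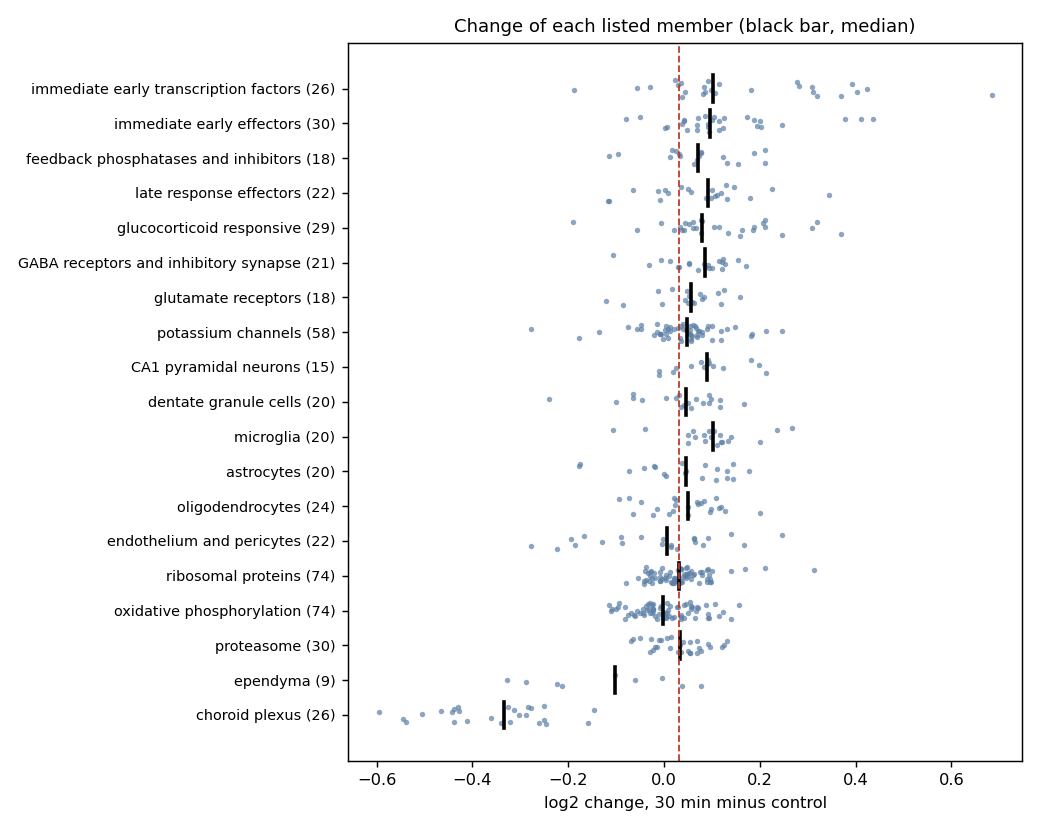
Log2 change at 30 min minus control (horizontal axis) of each member of 19 gene lists (rows, number of genes in brackets); each point is a gene, black bars are list medians and the dashed red line is the median of all genes, 0.03. The choroid plexus list stands to the left with a median of -0.33, and the immediate-early lists lie to the right with medians of 0.10 and single genes up to 0.68. Other lists have similar medians, among them microglia at 0.10 and late-response effectors at 0.09.

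The RNA values at the other times place the 30 min values in the course of the response. They share the control libraries, so each is given as a level only. Mean signals of Arc at control, 5, 10 and 30 min and 4 h were 3.58 ± 0.351, 4.74 ± 0.411, 4.93 ± 0.424, 4.87 ± 0.280 and 3.39 ± 0.184 (SD, n = 3 each). Those of Fos were 0.344 ± 0.0177, 0.559 ± 0.110, 0.616 ± 0.0948, 0.615 ± 0.0548 and 0.217 ± 0.0274. In both genes the levels at 5, 10 and 30 min lay within their spread of each other. Nr4a1 had 0.858 ± 0.0715, 0.854 ± 0.0809, 0.935 ± 0.116, 1.14 ± 0.0502 and 0.672 ± 0.0395, with its highest mean at 30 min. Npas4 had 0.132 ± 0.0442, 0.395 ± 0.207, 0.553 ± 0.101, 0.203 ± 0.0352 and 0.169 ± 0.0232, with its highest mean at 10 min. Tiparp had 2.21 ± 0.0611, 2.35 ± 0.129, 2.39 ± 0.134, 2.76 ± 0.175 and 2.26 ± 0.168, again highest at 30 min.

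**Figure D5:**
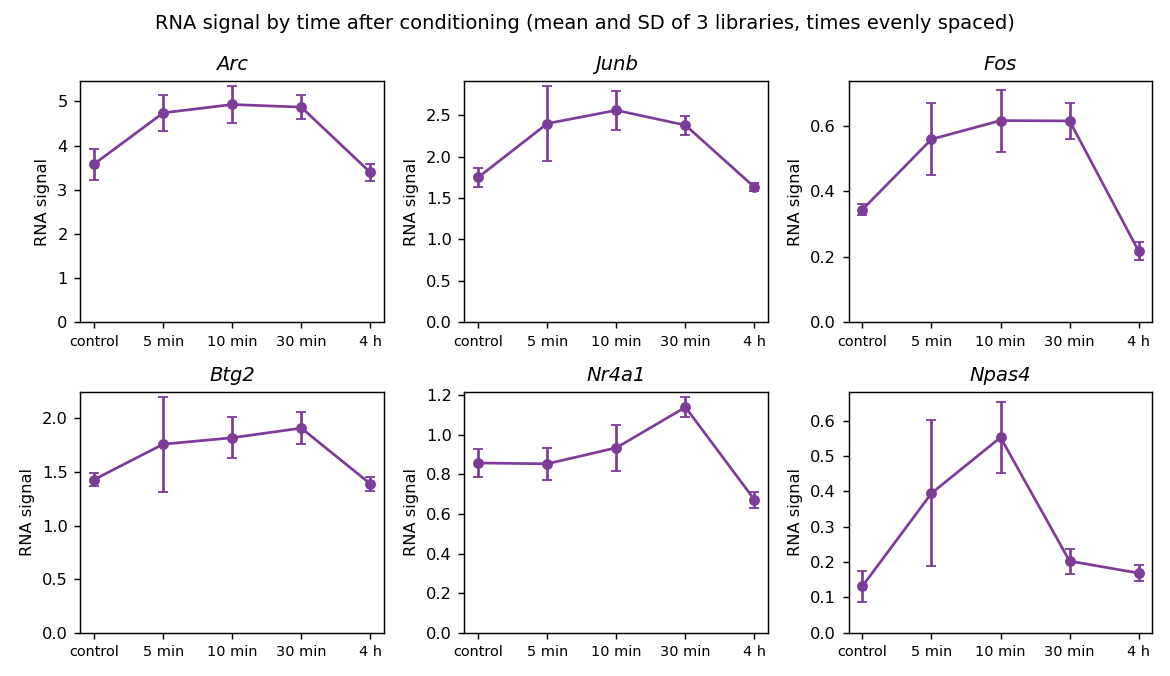
RNA signal (vertical axes, from 0; mean and SD of 3 libraries) of 6 immediate-early genes in control hippocampus and 5, 10 and 30 min and 4 h after conditioning, with times evenly spaced. Arc and Fos stand at similar levels at 5, 10 and 30 min, Nr4a1 is highest at 30 min with 1.14, and Npas4 is highest at 10 min with 0.553.

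Ribosome footprints, sequenced in separate libraries of the same groups, give another readout of these genes and are described without a test. The mean footprint signal of Fos was 1.06 ± 0.0789 at 30 min and 0.398 ± 0.0405 in control (SD, n = 3 each). That of Arc was 7.94 ± 0.331 at 30 min and 4.51 ± 0.697 in control, with each group's spread smaller than the difference. That of Junb was 3.77 ± 0.364 at 30 min and 2.54 ± 0.350 in control. The footprints of the 3 higher genes thus differed in the same direction as their RNA. Nr4a1, which did not pass in RNA, had footprint signals of 3.15 ± 0.125 at 30 min and 1.78 ± 0.154 in control. Cdkn1c had 0.584 ± 0.222 at 30 min and 0.826 ± 0.539 in control, a difference smaller than the spread within control. That spread ignores the pairing by number, on which the RNA call of Cdkn1c rested. Its RNA means, also unpaired, were 0.297 ± 0.143 at 30 min and 0.570 ± 0.270 in control. Footprint and RNA signals were divided by different numbers and are not compared with each other as amounts.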

How the data were processed

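The submitters' processing notes name CASAVA 1.8.2, Bowtie 1.1.1 and the mouse build mm9, with counting rules and strand use not given in the sources used here. The deposited values, called signal, were made by the authors from whole reads: multiplied by 1 number per library, each is whole to within 0.001 reads. What that divisor stands for is not stated in those sources. The deposited mean and fold change columns were not used. Depth is the recovered reads on listed genes.

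The test was limma 3.58.1 in R 4.3.3 (lmFit, eBayes with trend) on log2(signal + 0.1), with the replicate number as a block. It took 15 libraries in 1 model and all 11531 genes. The code was run on simulated reads with known changes and with the replicate-number effects of these data built in. That run does not bear on how well the block describes these libraries. Numbers come from the labels, which do not say what they share. Pairing by number was set in advance as part of the comparison. Deviations of same-numbered 30 min and control libraries from their group means correlated at 0.731, 0.258 and 0.646 for numbers 1 to 3. Crossed numbers gave -0.616 to -0.0211. Deviations from a group mean cancel out within the group, which pushes crossed values to the negative side, so these are no separate check of the pairing.

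Genes were named from those that passed, those with the smallest p in each direction and in each list, and a fixed set of activity and stress genes. Members of the immediate-early and feedback lists without overlap between the groups were added after their values were seen, and so were Ier3, Ier5 and Fosl2. Members and lists were chosen with earlier results of these data known. Alternatives covered the block, libraries in the model, pseudocount, low-signal filter, centring, voom and single libraries. Of the named genes, 1 is not reported here.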

Additional observations from a re-analysis of the deposited data

How the results depend on the processing

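Without the replicate block, 0 genes passed in either direction, and pairing by number was thus needed for each call; with a mean of at least 1, pseudocount 1 and no block, 0 passed as well. With genes of a mean of at least 1 only, 0 lower genes passed, since Cdkn1c was then not tested. With the 6 libraries alone and the replicate block, 2 lower genes passed, and with voom 3. When single libraries or all RNA libraries of 1 number were left out, the higher count ranged over 0 to 3. The lower count ranged over 0 to 20, and the cause was not tested. Pseudocounts of 0.5 and 1 and centring kept the same 4 genes. Over 174 named genes, 2815 gene and setting pairs kept direction and call, 26 lost the call, 15 gained it and 22 changed sign, in 13 genes, none of them past the threshold. In the voom fit these were Eif5 (-0.0016), Jun (-0.0261) and Egr3 (-0.0129). With libraries left out, the log2 changes ranged over -0.072 to 0.148 in Egr3, -0.0175 to 0.143 in Nrsn1, -0.387 to 0.035 in Aldh1a2, -0.0216 to 0.165 in Nrsn2, -0.159 to 0.05 in Per1, -0.0636 to 0.064 in Gad1, -0.0856 to 0.0053 in Hbb-bs, -0.335 to 0.0053 in Prkcd, -0.0141 to 0.146 in Nr4a3, -0.0065 to 0.149 in Slc17a7 and -0.0002 to 0.239 in Psma2. Fits with edgeR and DESeq2 were not run. The 6 libraries, with 16 to 27 reads for the lowest gene in each, limit what low-signal genes can show.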
